A study of Homo sapiens with 21 samples.

Results

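Lapatinib alone was compared with nilotinib alone in Hs578T cells, an established triple-negative breast cancer line with wild-type genotype in the labels. The comparison takes the 3 lapatinib libraries and the 3 nilotinib libraries out of 21 in the series, and 16036 of the 28395 genes in the deposited count table, namely those that passed a filter on low counts. Cells received 3.16 μM lapatinib, 1 μM nilotinib or DMSO, the solvent control, and RNA was isolated 8 h later. In 2 further groups of 3 libraries the same doses were given together with 0.1 μM THZ531, an inhibitor of the transcriptional kinases CDK12 and CDK13. The samples came from 3 independent experiments per the study's description. The inhibitors were given at different doses, so the identity of the drug and its dose cannot be told apart, and the results hold for 1 cell line and 1 time point.

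Lapatinib blocks the kinase domain of EGFR and of HER2, receptors of epidermal growth factor ligands that act through the ERK and AKT pathways. Nilotinib was developed against BCR-ABL and also blocks ABL kinases, the collagen receptors DDR1 and DDR2, KIT and the PDGF receptors. Both drugs also bind kinases and transporters beyond these targets, including the efflux pump ABCG2. Cells hold their cholesterol level through the transcription factor SREBP2, which raises the genes of cholesterol synthesis when membrane sterol is low. Actin genes are switched on by the serum response factor SRF and its partners when the actin cytoskeleton is assembled.

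The total count was 97612207 to 102092309 per lapatinib library and 106148878 to 108180338 per nilotinib library, within 97612207 to 112229052 over the series. Log2 CPM values (CPM express each count relative to a library size that was corrected by TMM, the trimmed mean of log ratios) correlated at 0.993 to 0.995 within a group and at 0.992 to 0.994 between both groups. The 10 markers of a mesenchymal breast cancer line, among them VIM, FN1 and AXL, summed to 20300 to 24970 CPM. The 10 epithelial markers summed to 109.6 to 117.9 CPM and 7 of them lay under 1 CPM in all 6 libraries. The 5 endothelial markers summed to at most 1.84 CPM, and the 6 immune markers to 98.3 to 124.6 CPM, nearly all of it CD68, while HBB had no count. In bulk RNA a lower level per cell and fewer cells with the transcript cannot be told apart. Nilotinib replicate 1 stood apart from the other nilotinib libraries in stress response genes, as shown further on, and was singled out after its values had been seen. Of the 145 genes called between the inhibitors, 66 were no longer called when it was left out. The 79 that stayed called compare with 65, 58 and 37 without lapatinib replicate 1, 2 or 3. They also compare with 51 without nilotinib replicate 2 and 51 without nilotinib replicate 3, so leaving out nilotinib replicate 1 cost the fewest calls. No gene changed sign without it, but the groups did not overlap in any of the 145, so a change could hardly occur.

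In the main fit, which does not use the replicate number, the inhibitors differed in a small set of genes. With edgeR's quasi-likelihood test and Benjamini-Hochberg adjustment over all 16036 genes, 57 genes (0.355% of those tested) were higher and 88 (0.549%) were lower with lapatinib than with nilotinib at an adjusted p-value under 0.05. The differences were modest, with a median absolute log2 FC of 0.43, and 3 of the higher and 9 of the lower genes differed by more than 1 on the log2 scale. Of the 145 called genes, 6 were not protein-coding. In each of the 145 genes the 3 libraries of one inhibitor lay beyond the 3 of the other, which held for 21.1% of the tested genes. When the libraries were scaled to their total counts in place of TMM, 68 genes were higher and 65 lower, so that lower genes made up 48.9% of the calls in place of 60.7%. With the replicate number as a block in the model, 78 genes were higher and 132 lower. The same block within the 6 libraries alone gave 474 higher and 513 lower, so the size of the set depends on the model.

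**Figure D1:**
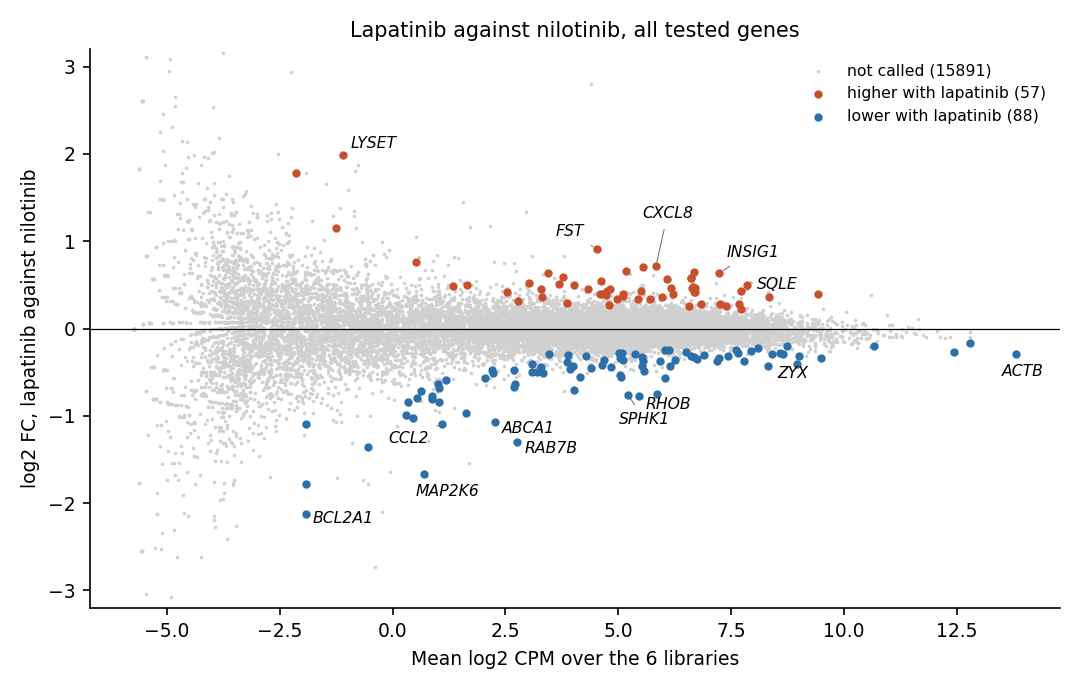
Log2 FC of lapatinib against nilotinib (y axis) against the mean log2 CPM over the 6 libraries (x axis) for each tested gene. Orange points mark the 57 genes called higher with lapatinib and blue points the 88 called lower, most of which lie within 1 of the zero line, and 21 genes that were not called lie beyond the y axis.

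Set beside DMSO, most of the called genes lay on opposite sides of the control. Of the 57 genes that were higher with lapatinib, 44 were above DMSO with lapatinib and below it with nilotinib, and 37 lay further from DMSO with lapatinib. Their median log2 FC against DMSO was 0.28 for lapatinib and -0.18 for nilotinib. Of the 88 genes that were lower with lapatinib, 79 lay on opposite sides and 29 lay further from DMSO with lapatinib, with medians of -0.14 for lapatinib and 0.27 for nilotinib. These comparisons share libraries with each other and with the choice of genes, so they describe where the genes lie. Against DMSO itself, lapatinib gave 41 higher genes (0.256%) and 9 lower (0.0561%), and nilotinib gave 39 higher (0.243%) and 16 lower (0.0998%). Without nilotinib replicate 1 the nilotinib counts against DMSO were 8 higher (0.0499%) and 3 lower (0.0187%). That fit holds fewer samples, and the other nilotinib libraries were not left out in turn for this contrast. The part of that library in the fall therefore cannot be told apart from the loss of a sample. The numbers of genes called with nilotinib that follow use all nilotinib libraries. Of the 57 genes, 14 were called with lapatinib against DMSO, 3 with nilotinib against DMSO and 40 with neither. Among the 88 genes, 4 were called with lapatinib, 19 with nilotinib, counting 1 gene called with both, and 66 with neither.

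Genes of cholesterol synthesis and uptake gave the most higher calls of the 24 gene lists with all 6 libraries, whereas without nilotinib replicate 1 the ATF4 response gave 11 and the ER chaperones 9 beside 8 sterol genes. Of 25 tested members, 8 were higher with lapatinib and 0 lower, beside 0.355% higher over all tested genes, and the median log2 FC of the list was 0.13 beside -0.0043 over all genes. INSIG1, an ER protein that retains the SREBP escort SCAP and is itself an SREBP target (chr7:155297878-155310235, GRCh38.p14), was at 200, 176 and 191 CPM in the lapatinib replicates and at 126, 119 and 119 CPM with nilotinib. All 3 lapatinib values lay above the nilotinib values and above DMSO, where INSIG1 was at 113, 101 and 111 CPM. Its log2 FC of lapatinib against nilotinib was 0.64 ± 0.08 (SE, n = 3 per group, adjusted p = 0.000442). HMGCS1, which makes the HMG-CoA used for mevalonate, was at 124, 130 and 130 CPM with lapatinib and at 78.2, 83.1 and 83.9 CPM with nilotinib (log2 FC 0.64 ± 0.11, adjusted p = 0.00686). For this gene nilotinib lay below the DMSO values of 94.5, 95 and 88.0 CPM while lapatinib lay above them, and neither drug was called against DMSO.

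Further down the pathway, MSMO1, a methylsterol oxidase, was at 87.9, 78.4 and 79.3 CPM with lapatinib and at 59.3, 54.3 and 52.6 CPM with nilotinib. Its log2 FC was 0.56 ± 0.07 (adjusted p = 0.000274). IDI1, which isomerises isopentenyl diphosphate, differed by 0.46 ± 0.08, SQLE, which makes squalene epoxide, by 0.43 ± 0.09, and CYP51A1, the lanosterol demethylase, by 0.28 ± 0.06 (adjusted p = 0.00686, 0.0183 and 0.0366). STARD4, a carrier of cholesterol between membranes, differed by 0.45 ± 0.09 (adjusted p = 0.0242). In all the called sterol genes the groups did not overlap. Other genes of the pathway, picked out after their values had been seen, were not called, and of these FDFT1 had a log2 FC of 0.05, DHCR7 of -0.01 and MVD of -0.11. SREBF2, the gene of SREBP2, looked up in the same way, had a log2 FC of 0.02 (95% interval -0.10 to 0.15).

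In the opposite direction, ABCA1, the pump that exports cholesterol to apolipoprotein A-I (chr9:104781006-104928155), was at 2.93, 3.07 and 3.96 CPM with lapatinib and at 6.28, 6.93 and 7.71 CPM with nilotinib. The nilotinib values lay above DMSO (5.73, 5.13 and 5.14 CPM) and the lapatinib values below it, with a log2 FC between the inhibitors of -1.07 ± 0.17 (adjusted p = 0.0025). INSIG1, HMGCS1, MSMO1 and ABCA1 stayed called whichever of the 6 libraries was dropped from the fit. IDI1 was lost without lapatinib replicate 3 (adjusted p = 0.0543). STARD4 was lost without lapatinib 1 or 3 or nilotinib 2 or 3 (adjusted p up to 0.146), and SQLE and CYP51A1 were lost without lapatinib 2 as well (up to 0.116 and 0.156).

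**Figure D2:**
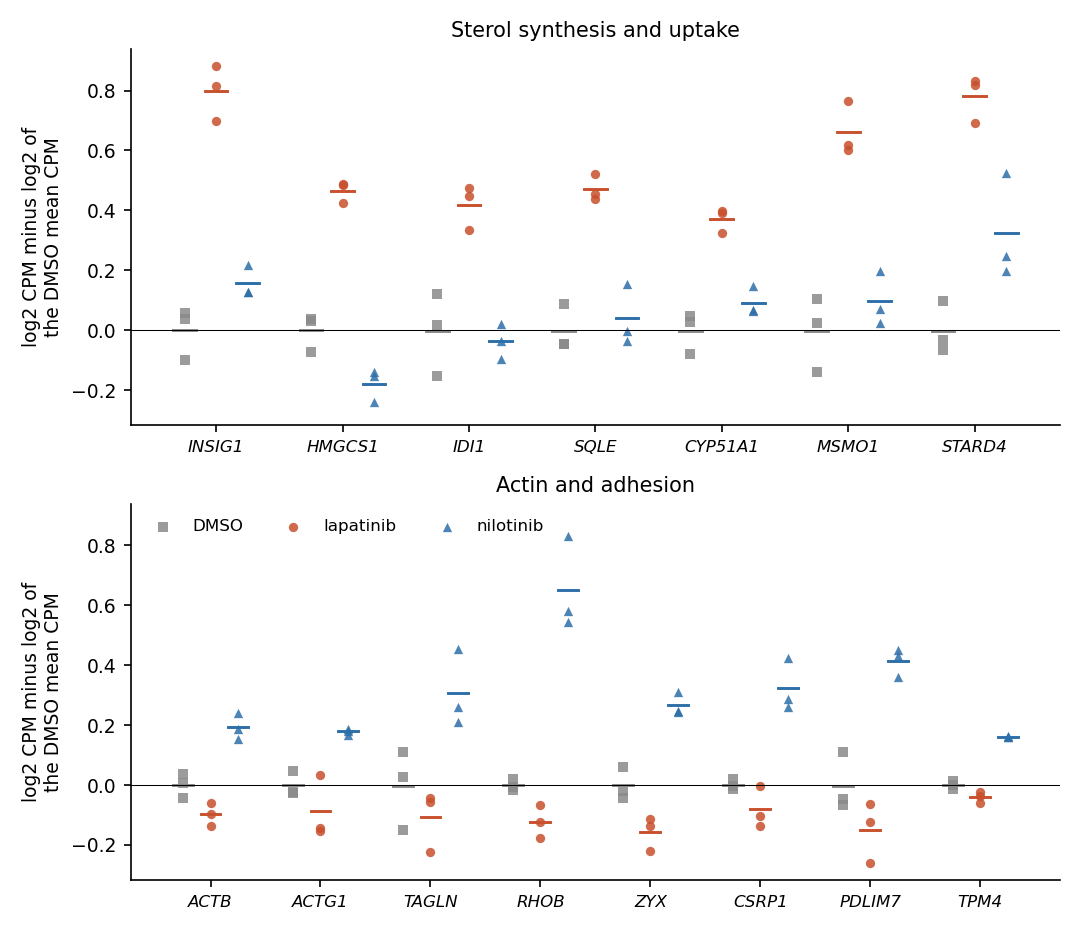
Log2 CPM of each library minus the log2 of the DMSO mean CPM (y axis) for 7 sterol genes (top) and 8 actin and adhesion genes (bottom) in DMSO (grey squares), lapatinib (orange circles) and nilotinib (blue triangles), with bars at group means, n = 3. The sterol genes are raised with lapatinib, whereas the actin and adhesion genes lie above DMSO with nilotinib and mostly at or below it with lapatinib.

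Several genes of the actin cytoskeleton were called lower with lapatinib than with nilotinib, ACTB among them. In the list of YAP and SRF targets, 0 of 22 tested members were higher and 3 were lower (ACTB, ACTG1 and TAGLN), beside 0.549% lower over all genes, and the median log2 FC was -0.11, with 8 of the 22 values above 0 and 2 genes called without nilotinib replicate 1. ACTB, the cytoplasmic beta-actin often used as a reference gene (chr7:5527148-5530601), was at 13250, 12890 and 12550 CPM with lapatinib and at 16290, 15340 and 15710 CPM with nilotinib. The DMSO libraries lay between the groups, at 13400, 14140 and 13850 CPM. The log2 FC was -0.29 ± 0.04 (SE, n = 3 per group, adjusted p = 0.0017), which stayed between -0.31 and -0.27 with each library left out. ACTG1, gamma-actin, which can share reads with ACTB, differed by -0.26 ± 0.06 (adjusted p = 0.0317). TAGLN, the actin-binding protein transgelin, was at 22.4, 22.3 and 19.8 CPM against 31.7, 26.8 and 27.7 CPM (log2 FC -0.42 ± 0.09, adjusted p = 0.0363). TAGLN was lost when any of the 6 libraries was left out (adjusted p up to 0.188), and ACTG1 when any but lapatinib replicate 1 was (up to 0.161). VCL, vinculin, missed the threshold with a log2 FC of -0.21 (adjusted p = 0.0521) and passed it with the replicate block (adjusted p = 0.0419). CCN1 and CCN2, secreted YAP targets looked up besides, had log2 FCs of 0.07 and 0.07.

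RHOB, a small GTPase that acts on actin and endosomes (chr2:20447074-20449440), was at 34.9, 33.6 and 32.3 CPM with lapatinib and at 65.0, 53.3 and 54.6 CPM with nilotinib. Lapatinib lay near DMSO (36.4, 36.2 and 37.1 CPM) and nilotinib lay above both. The log2 FC between the inhibitors was -0.78 ± 0.10 (adjusted p = 0.000432), and nilotinib against DMSO gave 0.66 (adjusted p = 0.0053). PDLIM7, a scaffold on actin stress fibres, was at 50.1, 57.4 and 55.1 CPM against 77.1, 81.0 and 82.0 CPM (log2 FC -0.56 ± 0.08, adjusted p = 0.00152). CORO2B, of the coronin family of actin regulators, was at 2.08, 2.36 and 2.18 CPM with lapatinib and at 4.48, 3.90 and 4.58 CPM with nilotinib (log2 FC -0.97 ± 0.13, adjusted p = 0.000799). MYO7B, an unconventional myosin, differed by -0.68 ± 0.13 (adjusted p = 0.0129). RHOB, PDLIM7 and CORO2B stayed called with each library left out, and MYO7B was lost without lapatinib 1 or 3 or nilotinib 2 (adjusted p up to 0.0856).

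Other actin and adhesion genes among the 88 were picked out after their values had been seen, and their number was not tested. ZYX, zyxin of focal adhesions, was at 263, 283 and 278 CPM with lapatinib and at 380, 363 and 363 CPM with nilotinib (log2 FC -0.42 ± 0.06, adjusted p = 0.000993). CSRP1, an actin-bundling LIM protein, was at 454, 414 and 424 CPM against 610, 556 and 546 CPM (log2 FC -0.41 ± 0.06, adjusted p = 0.000883). Smaller differences were seen for CNN2 (calponin 2, -0.37), PDLIM4 (-0.37), SYNPO (synaptopodin, -0.37), FSCN1 (fascin, -0.34), LIMA1 (-0.29), PXN (paxillin, -0.26) and TPM4 (tropomyosin 4, -0.20). VIM, the intermediate filament protein vimentin, was also lower with lapatinib, at 6395 to 6847 CPM against 7459 to 7488 CPM (log2 FC -0.17 ± 0.04, adjusted p = 0.0411). ZYX, CSRP1, CNN2 and FSCN1 stayed called with each library left out. VIM, PDLIM4 and TPM4 were lost without any of the 6 (adjusted p up to 0.168, 0.195 and 0.101), PXN without any but lapatinib 2 (up to 0.106), SYNPO without any but nilotinib 1 (up to 0.232) and LIMA1 without lapatinib 2 or 3 (up to 0.0674).

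Because ACTG1 and others of these genes are known targets of SRF, the promoter windows of the called genes were searched for the CArG box, the motif that SRF binds. Among the 69 lower genes with a RefSeq promoter window, 6 (8.7%) held a CArG box in the 250 bases before the gene's start, beside 1.44% of all 27305 genes with a window and 1.52% of the tested genes. Of the 44 higher genes with a window, 0 held one. The motif was chosen with these results known, the counts are small, and a match is not evidence of binding. The 6 genes were ACTG1, CAPN2, CNN2, EHD1, GBP1 and TPM4. Among the called YAP and SRF targets only ACTG1 had a window, so ACTB and TAGLN were not searched. The matches in the 3 genes of the actin cytoskeleton are printed with the CArG box in capitals, on the strand of the gene, from RefSeq windows of GRCh38.p14. They lie at chr17:81512874-81512903 (minus strand) for ACTG1, chr19:1026509-1026538 (plus strand) for CNN2 and chr19:16067355-16067384 (plus strand) for TPM4.
ACTG1: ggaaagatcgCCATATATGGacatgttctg
CNN2: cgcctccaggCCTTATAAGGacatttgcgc
TPM4: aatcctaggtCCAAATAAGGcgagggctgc
The box of ACTG1 starts 94 bases before the gene's start, that of CNN2 89 and that of TPM4 173. A core of the sterol response element, CACCCCAC on either strand, was in 0 of the 6 called sterol genes with a window, in 1 of 19 tested sterol genes (SREBF2) and in 2.97% of all genes with a window.

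For stress response genes the calls depended on nilotinib replicate 1. Of 34 tested genes of the ATF4 integrated stress response, which is switched on by amino acid shortage and ER stress, 0 were called between the inhibitors in either direction with all 6 libraries, with a median log2 FC of 0.07. By an unadjusted p under 0.05 the counts over all tested genes were 843 higher and 970 lower. ATF4, ASNS, TRIB3 and HSPA5 were likewise looked up afterwards. ATF4, the transcription factor itself, was at 175, 173 and 146 CPM with lapatinib, at 261, 116 and 118 CPM with nilotinib and at 78.1, 86.0 and 80.3 CPM in DMSO. Nilotinib replicate 1 lay above all lapatinib libraries while the other two nilotinib libraries lay below them, and all 6 lay above DMSO. Both inhibitors differed from DMSO in ATF4 (log2 FC 1.02 for each, adjusted p = 0.0283 for lapatinib and 0.0266 for nilotinib), and without nilotinib replicate 1 the ATF4 value of nilotinib against DMSO was 0.52 (adjusted p = 0.0114). ASNS, asparagine synthetase, followed the same order, at 103, 94.0 and 85.2 CPM with lapatinib and 125, 57.6 and 60.8 CPM with nilotinib, and so did TRIB3, a pseudokinase induced by ATF4, at 53.5, 41.4 and 38.1 CPM against 68.4, 24 and 24.2 CPM. Nilotinib replicate 1 was above both other nilotinib libraries in 33 of the 34 genes, beside 6556 of 16036 tested genes. It was the highest of the 6 libraries in 25, that is 73.5% beside 22.1% of all tested genes. In the other lists that share ran from 0% for mitotic genes to 55% for aminoacyl-tRNA synthetases.

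Without nilotinib replicate 1, 70 genes (0.437%) were higher and 53 (0.331%) lower with lapatinib. ATF4 response genes then made up 11 of the higher genes and 0 of the lower, and the median log2 FC of the list was 0.36. ATF4 had a log2 FC of 0.50 (adjusted p = 0.00342), ASNS of 0.67 (adjusted p = 0.00176), TRIB3 of 0.88 (adjusted p = 0.0162) and DDIT4, an inhibitor of mTORC1 signalling, of 1.52 (adjusted p = 0.000232). With all 6 libraries these log2 FCs were -0.00, 0.21, 0.19 and 0.83. Nilotinib replicate 1 was singled out after its high values in ATF4 response genes had been seen. Leaving it out therefore lowers nilotinib in them, and these counts and p-values are a description. What set nilotinib replicate 1 apart was not tested. Its mitochondrially encoded mRNA share of 1.56% was the highest of the 6 libraries (1.27% to 1.51% in the others), and 11 of the 13 mitochondrially encoded mRNAs were above both other nilotinib libraries, with a median log2 ratio of 0.22. Over all 16036 tested genes, 6556 lay above both others.

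**Figure D3:**
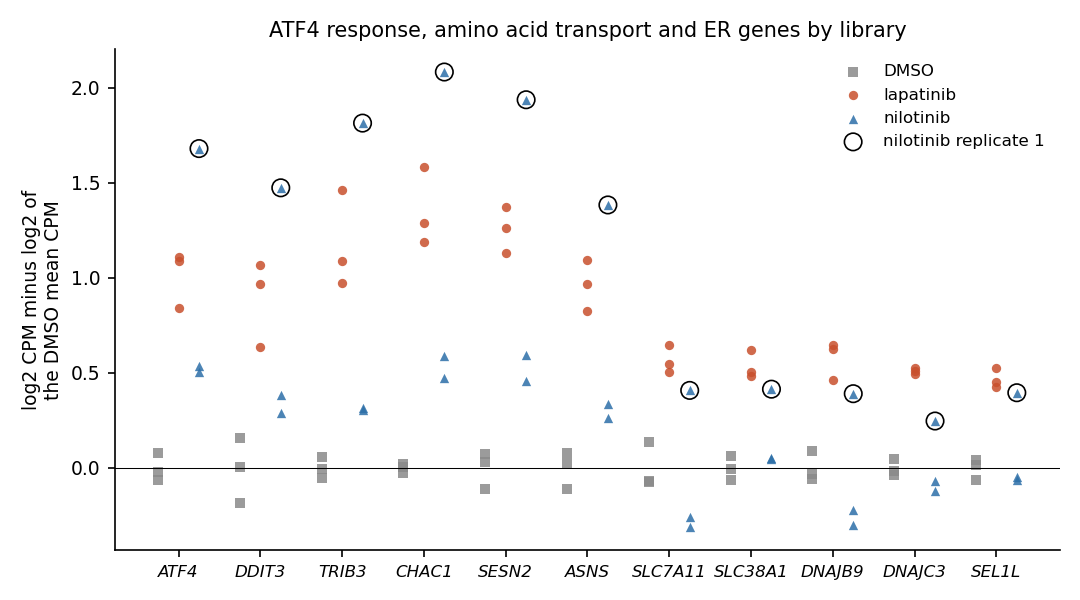
Log2 CPM of each library minus the log2 of the DMSO mean CPM (y axis) for 11 genes of the ATF4 response, amino acid transport and the ER in DMSO (grey squares), lapatinib (orange circles) and nilotinib (blue triangles), with nilotinib replicate 1 circled. In ATF4, TRIB3 and ASNS that library lies above the lapatinib libraries, and in SLC7A11 and DNAJC3 it lies between them and the other nilotinib libraries.

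Among genes that supply amino acids and fold proteins in the ER, 4 passed the test with all 6 libraries, and these were higher with lapatinib. Of 13 amino acid transporters, 2 were higher and 0 lower, beside 0.355% and 0.549% over all tested genes. SLC7A11, the cystine importer that feeds glutathione synthesis, was at 128, 116 and 120 CPM with lapatinib and at 109, 66.1 and 68.6 CPM with nilotinib (log2 FC 0.58 ± 0.13, adjusted p = 0.0374). SLC38A1, a glutamine transporter, was at 387, 358 and 353 CPM against 336, 261 and 260 CPM (log2 FC 0.36 ± 0.08, adjusted p = 0.038). In both genes nilotinib replicate 1 was the nilotinib library closest to lapatinib. Without it the log2 FC was 0.86 for SLC7A11 and 0.49 for SLC38A1, and 6 of the 13 transporters were called, beside 0.437% higher over all genes. That library was singled out after its values had been seen, so these values are a description. Both genes were lost without any other library (adjusted p up to 0.194 and 0.198).

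Among 22 ER chaperones and genes of the unfolded protein response, 2 were higher and 0 lower, beside 0.355% and 0.549% over all tested genes. The median log2 FC of the list was 0.17 beside -0.0043 over all genes. DNAJC3, an ER co-chaperone that also inhibits eIF2α kinases, was at 117, 119 and 120 CPM with lapatinib and at 98.9, 76.6 and 79.6 CPM with nilotinib (log2 FC 0.48 ± 0.08, adjusted p = 0.0082). DNAJB9, a co-chaperone of BiP, was at 17.8, 15.7 and 17.5 CPM against 14.9, 9.76 and 9.22 CPM (log2 FC 0.59 ± 0.14, adjusted p = 0.0411). SEL1L, of the complex that removes misfolded ER proteins, had a log2 FC of 0.36 (adjusted p = 0.0547) and passed the test with the replicate block (adjusted p = 0.0202). HSPA5, the gene of BiP, was at 1856, 1966 and 1680 CPM with lapatinib and at 2166, 999 and 1052 CPM with nilotinib. Without nilotinib replicate 1, 9 of the 22 genes were called higher, beside 0.437% of all genes. HSPA5 was among them with a log2 FC of 0.84 in place of 0.38 (adjusted p = 5.33e-05 in place of 0.449). That library was singled out after its values had been seen, so these values too are a description. DNAJC3 was lost without nilotinib 2 or 3 (adjusted p up to 0.063), and DNAJB9 without any library other than nilotinib replicate 1 (up to 0.212).

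FOXO factors are held in the cytoplasm by AKT and raise growth arrest and protein breakdown genes when AKT activity is low. In the FOXO target list 3 of 17 tested genes were higher with lapatinib and 0 lower, beside 0.355% and 0.549% over all tested genes. The median log2 FC of the list was 0.26 beside -0.0043 over all genes. Against DMSO the median of the list was 0.04 for lapatinib and -0.13 for nilotinib, and 0 members were called with either drug. The activity of AKT or FOXO was not tested. Without nilotinib replicate 1 the median was 0.25 and again 3 genes were called. KLHL24, an adaptor of a ubiquitin ligase, was at 14.2, 12.8 and 13.7 CPM with lapatinib and at 9.64, 8.32 and 8.14 CPM with nilotinib (log2 FC 0.64 ± 0.13, adjusted p = 0.0242). CCNG2, cyclin G2, which slows the cell cycle, was at 15, 14.7 and 16.1 CPM against 11.5, 10.6 and 9.95 CPM (log2 FC 0.51 ± 0.11, adjusted p = 0.0357). FBXO32, the ubiquitin ligase subunit atrogin-1, differed by 0.43 ± 0.08 (adjusted p = 0.0114). PDK4, which inhibits pyruvate dehydrogenase, had a log2 FC of 1.05 (adjusted p = 0.0501) and passed with the replicate block (adjusted p = 0.0412). The calls depended on single libraries, since KLHL24 and CCNG2 were lost without any library other than nilotinib replicate 1 (adjusted p up to 0.132 and 0.172) and FBXO32 without lapatinib 2 or nilotinib 2 or 3 (up to 0.0851).

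The gene with the largest excess with lapatinib at a mean log2 CPM of at least 1 was FST, follistatin, a secreted inhibitor of activin (chr5:53480629-53487134). It was at 34.1, 30.1 and 30 CPM with lapatinib, at 18.6, 16.4 and 15.2 CPM with nilotinib and at 22.7, 20.4 and 21.5 CPM in DMSO. The groups lay on either side of DMSO without overlap, with a log2 FC between them of 0.91 ± 0.11 (adjusted p = 0.000274). UGCG, glucosylceramide synthase, was at 57.9, 59.5 and 61.7 CPM against 39.4, 36.0 and 34.0 CPM (log2 FC 0.71 ± 0.13, adjusted p = 0.011). PDE5A, the cGMP phosphodiesterase that sildenafil inhibits, was at 43.8, 44.3 and 47.4 CPM against 25.5, 29.4 and 30.7 CPM (log2 FC 0.66 ± 0.10, adjusted p = 0.0017). TXNRD1, thioredoxin reductase, was at 848, 774 and 738 CPM with lapatinib and at 618, 588 and 581 CPM with nilotinib (log2 FC 0.40 ± 0.06, adjusted p = 0.00111). It was, with SLC7A11, 1 of the 2 genes called among 21 NRF2 targets, a list of antioxidant genes with a median log2 FC of 0.02. Over all tested genes 0.355% were higher. Also higher were DHRS3, a retinaldehyde reductase (0.55), PER1, a repressor of the circadian clock (0.52), and PLAT, tissue plasminogen activator (0.50). FST, PDE5A and TXNRD1 stayed called with each library left out. UGCG was lost without lapatinib 3 or nilotinib 2 or 3 (adjusted p up to 0.0764), DHRS3 without nilotinib 1 or 3 (up to 0.0561), PLAT without lapatinib 1 or 3 or nilotinib 2 or 3 (up to 0.106) and PER1 without any of the 6 (up to 0.153).

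The strongest excess with nilotinib at a mean log2 CPM of at least 1 was RAB7B, a small GTPase of late endosomes and the Golgi (chr1:205976740-206003395). It was at 4.02, 4.31 and 4.62 CPM with lapatinib, at 11.1, 9.76 and 11.0 CPM with nilotinib and at 6.17, 6.09 and 6.22 CPM in DMSO. Its log2 FC was -1.30 ± 0.11 (adjusted p = 3.73e-06), and it differed from DMSO in opposite directions, by -0.51 with lapatinib (adjusted p = 0.0467) and by 0.79 with nilotinib (adjusted p = 0.00278). SPOCD1, known for a role in transposon silencing in germ cells (chr1:31790422-31816022), was at 42.4, 46.7 and 44.3 CPM against 74.5, 74.7 and 74.4 CPM (log2 FC -0.75 ± 0.07, adjusted p = 1.36e-05). SPHK1, which makes sphingosine 1-phosphate, was at 30.5, 27.0 and 28.2 CPM with lapatinib and at 51.7, 47.4 and 45.6 CPM with nilotinib (log2 FC -0.76 ± 0.08, adjusted p = 3.39e-05). Lower with lapatinib were also LAMA1, the laminin alpha 1 chain (-0.67), IL27RA, a subunit of the interleukin 27 receptor (-0.64), CLDN14, a tight junction claudin (-0.84), BEGAIN (-0.59) and ADGRF4 (-0.56). RAB7B, SPOCD1, SPHK1, LAMA1 and IL27RA stayed called with each library left out. CLDN14 and BEGAIN were lost without any of the 6 (adjusted p up to 0.136 and 0.142) and ADGRF4 without lapatinib 2 or 3 or nilotinib 2 or 3 (up to 0.0707).

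Genes of inflammatory signalling moved in both directions. Of 18 tested cytokine and NF-κB feedback genes, 1 was higher with lapatinib and 3 were lower, beside 0.355% and 0.549% over all tested genes. The median log2 FC of the list was -0.20. Without nilotinib replicate 1 the list gave 0 higher genes, 1 lower gene and a median of -0.15. CXCL8, the neutrophil chemokine interleukin 8 (chr4:73740569-73743716), was at 77.6, 63.1 and 78.5 CPM with lapatinib and at 47.5, 42.7 and 43.5 CPM with nilotinib (log2 FC 0.71 ± 0.16, adjusted p = 0.0366). Lapatinib lay within the range of DMSO apart from replicate 2 (87.4, 66.5 and 76.1 CPM in DMSO), and nilotinib was below DMSO (log2 FC -0.78, adjusted p = 0.0323), which CXCL8 no longer passed without nilotinib replicate 1 (-0.83, adjusted p = 0.148). CCL2, the monocyte chemokine, was at 1.29, 1.29 and 1.83 CPM against 3.58, 2.57 and 3.27 CPM (log2 FC -1.09 ± 0.22, adjusted p = 0.0222). RELB, an NF-κB subunit, differed by -0.56 ± 0.11 (adjusted p = 0.0158) and NFKBIA, which codes for the inhibitor of NF-κB, by -0.33 ± 0.06 (adjusted p = 0.00973). CXCL8 was lost without any library other than lapatinib 2 (adjusted p up to 0.152), CCL2 without lapatinib 1 or 2 or nilotinib 1 or 3 (up to 0.113), RELB without any lapatinib library or nilotinib 1 (up to 0.098) and NFKBIA without lapatinib 2 or nilotinib 3 (up to 0.0578).

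GBP1, an interferon-induced guanylate-binding protein (chr1:89052319-89065208), was at 12.5, 12.8 and 12.7 CPM with lapatinib and at 20.7, 20.2 and 21.3 CPM with nilotinib, on either side of DMSO (17.8, 16.3 and 16 CPM). Its log2 FC was -0.71 ± 0.09 (adjusted p = 0.000274) and stayed called with each library left out. Its paralogs were looked up after this was seen and may share reads with it. GBP2 and GBP3 were lower too (log2 FC -0.51 and -0.43, adjusted p = 0.0242 and 0.0129) but GBP2 was lost without lapatinib 2 or 3 or nilotinib 1 or 3 (adjusted p up to 0.15) and GBP3 without any but nilotinib 2 (up to 0.0602), whereas GBP4 and GBP5, both under 1 CPM, had log2 FCs of -0.16 and -0.05 that did not pass the test.

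MAP2K6, the kinase that activates p38, was at 0.755, 1.02 and 0.941 CPM with lapatinib, at 3.13, 2.42 and 3.10 CPM with nilotinib and at 1.19, 0.949 and 1.13 CPM in DMSO (chr17:69414697-69553865). Lapatinib lay near DMSO and nilotinib above it, with a log2 FC between the inhibitors of -1.67 ± 0.21 (adjusted p = 0.000274) and 0.00414 as the highest adjusted p with a library left out. It was the 1 gene called among 17 of the p38 and JNK pathways, beside 0.355% higher and 0.549% lower over all tested genes. MAP2K3, the other p38 kinase kinase of that list, had a log2 FC of -0.35 (adjusted p = 0.0554) and passed with the replicate block (adjusted p = 0.0349). Among 20 ERK feedback and ETS target genes, 0 were higher and 2 lower, SPHK1 and ETV4, an ETS factor at 12.5, 13.5 and 13.1 CPM against 16.8, 19.2 and 17.9 CPM (log2 FC -0.47 ± 0.07, adjusted p = 0.00297). EDN1, endothelin 1, was the 1 gene called of 10 aryl hydrocarbon receptor targets (log2 FC -0.48, adjusted p = 0.00755). It was lost without lapatinib 3 (adjusted p = 0.0659).

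The drug targets themselves were not called. EGFR was at 153, 188 and 178 CPM with lapatinib and at 180, 197 and 198 CPM with nilotinib, a log2 FC of -0.15 (95% interval -0.35 to 0.05, adjusted p = 0.624). ERBB2, the gene of HER2, was at 32.5, 38.6 and 38 CPM against 35.9, 40.5 and 41.1 CPM (log2 FC -0.11, 95% interval -0.34 to 0.13). ABL1 had a log2 FC of -0.08 (95% interval -0.42 to 0.26), DDR2 of 0.21 (0.02 to 0.40, adjusted p = 0.383), PDGFRA of 0.09 (-0.12 to 0.30) and PDGFRB of 0.04 (-0.18 to 0.27). KIT had 0 to 6 counts per library and was not tested. DDR1 was listed at 0 in all 6 libraries, and whether this reflects its expression or how its reads were counted is not known. ABCG2, the efflux pump that the study places at the centre of its drug combinations, was at 25.4, 21.1 and 21 CPM with lapatinib and at 21.9, 22.3 and 21.3 CPM with nilotinib (log2 FC 0.04, 95% interval -0.20 to 0.29). Of 11 ABC transporters tested, ABCA1 was the 1 called, beside 0.355% higher and 0.549% lower over all tested genes.

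In 12 lists other than the ATF4 response no member was called between the inhibitors in the main edgeR fit in either direction. They were 20 aminoacyl-tRNA synthetases, 13 fatty acid synthesis genes, 26 immediate-early genes, 17 ERBB receptors, ligands and inhibitors, 10 nilotinib target kinases, 10 genes around TXNIP, 21 hypoxia genes, 31 extracellular matrix and TGF-β targets, 42 lysosomal genes, 29 G1/S genes, 20 mitotic genes and 13 mitochondrially encoded mRNAs. With the replicate block over all libraries, THBS1, which codes for the matrix protein thrombospondin 1, was called higher (log2 FC 0.59, adjusted p = 0.0349) and TGFB1, the growth factor TGF-β1, lower (-0.21, adjusted p = 0.0308), both of the extracellular matrix list. The block within the 6 libraries alone called 474 genes higher and 513 lower over all. Of these lists it then called 5 matrix genes higher and 1 lower, and 2 G1/S genes higher and 3 lower. It also called 2 TXNIP, 2 hypoxia and 2 lysosomal genes higher, and 2 immediate-early and 1 ERBB gene lower. In the main fit the medians of the 12 lists lay between -0.08 for immediate-early genes and 0.06 for genes around TXNIP.

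A set of 17 called genes, MAP2K6 among them, lay under the mean log2 CPM of 1. The lowest of them, FAM156A, MAP3K14-AS1, BCL2A1 and MOB3B, rest on few reads. BCL2A1, an anti-apoptotic BCL2 relative, was at 0.0898, 0.144 and 0.129 CPM with lapatinib and at 0.892, 0.323 and 0.389 CPM with nilotinib (log2 FC -2.13 ± 0.50, adjusted p = 0.04998), and without nilotinib replicate 1 its log2 FC was -1.54 (adjusted p = 0.235). BCL2A1 was lost without any of the other 5 libraries too. LYSET, needed for lysosomal enzyme transport, was at 0.324, 1.25 and 1.44 CPM against 0.289, 0.145 and 0.320 CPM (log2 FC 1.99 ± 0.44, adjusted p = 0.0319), so that lapatinib replicate 1 lay close to the nilotinib range, and LYSET was lost without any library other than that one (adjusted p up to 0.184). GPRC5A, a retinoic acid-induced receptor, differed by 0.76 ± 0.15, FGF1, a fibroblast growth factor, by -0.77 ± 0.15 and KALRN, a guanine nucleotide exchange factor, by -0.99 ± 0.19. GPRC5A was lost without any library but lapatinib 1 (adjusted p up to 0.106), FGF1 without lapatinib 2 or 3 or nilotinib 1 (up to 0.0855) and KALRN without lapatinib 1 or 2 or nilotinib 2 or 3 (up to 0.0847). Also called were FAM156A and LINC00472, which were higher, and ACOX2, DTX4, LIMS2, MOB3B, TMT1B, DRGX, GALNT9-AS1 and MAP3K14-AS1, which were lower with lapatinib. Counting was unstranded, so that reads of the antisense genes and of their partners cannot be told apart.

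The same pair of inhibitors was also compared in the 6 libraries that received 0.1 μM THZ531 as well, which share no library with the comparison of the inhibitors alone. There, 117 genes (0.73%) were higher and 118 (0.736%) lower with lapatinib and THZ531 than with nilotinib and THZ531. Of the 57 genes higher with lapatinib alone, 50 (87.7%) had the same sign with THZ531 and 12 were called in the same direction. Among the 88 lower genes, 85 (96.6%) had the same sign and 16 were called in the same direction, and 0 of the 145 genes were called in the opposite one. Across all tested genes 52.2% had the same sign in both comparisons, and the log2 FCs correlated weakly across genes, which are not independent replicates (Pearson's r = 0.058, Spearman's rho = 0.106). The differences were smaller with THZ531, with a median log2 FC of 0.17 in place of 0.45 for the higher genes and of -0.19 in place of -0.43 for the lower genes. The genes had been chosen on the values without THZ531, so these medians are a description.

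FST kept its difference, at 46.2, 51.2 and 39.6 CPM with lapatinib and THZ531 and at 23.4, 23.6 and 22 CPM with nilotinib and THZ531 (log2 FC 0.99 ± 0.11, adjusted p = 9.3e-05). GBP1 was at 14.8, 11.4 and 12.9 CPM against 24.6, 25.0 and 26.7 CPM (log2 FC -0.96 ± 0.09, adjusted p = 1.1e-05), and CXCL8 at 38.5, 53.0 and 30 CPM against 23.4, 18.7 and 20.2 CPM (log2 FC 0.96 ± 0.16, adjusted p = 0.0045). RAB7B was lower with lapatinib there too (log2 FC -0.85 ± 0.12, adjusted p = 0.00083). In the sterol list 1 gene, INSIG1, was called with THZ531 present (log2 FC 0.48 ± 0.08, adjusted p = 0.0062). MSMO1 was then at 69.8, 71.6 and 69.7 CPM against 65.3, 61.1 and 64.0 CPM, a log2 FC of 0.15 ± 0.07 (adjusted p = 0.38). RHOB, which differed by -0.78 without THZ531, was at 173, 189 and 198 CPM with lapatinib and THZ531 and at 176, 191 and 198 CPM with nilotinib and THZ531 (log2 FC -0.01 ± 0.10). ACTB likewise had a log2 FC of -0.00 ± 0.04 in those libraries. Whether the difference between the inhibitors depended on THZ531 was tested as an interaction, which edgeR called for 0 genes (0%). By an unadjusted p under 0.05 the interaction was positive in 750 genes and negative in 830, DESeq2 called 81 genes and limma voom 0. The smallest adjusted interaction p by edgeR was 0.15. The unadjusted interaction p by edgeR was 2.6e-05 for RHOB, 0.00014 for ACTB and 0.00043 for MSMO1, and 0.61 for FST. It was under 0.05 in 74 of the 145 genes called without THZ531. All these genes were chosen on the difference without THZ531, which is itself part of the interaction. Their unadjusted p-values are therefore biased low. They are a description and do not show that the difference depended on THZ531.

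**Figure D4:**
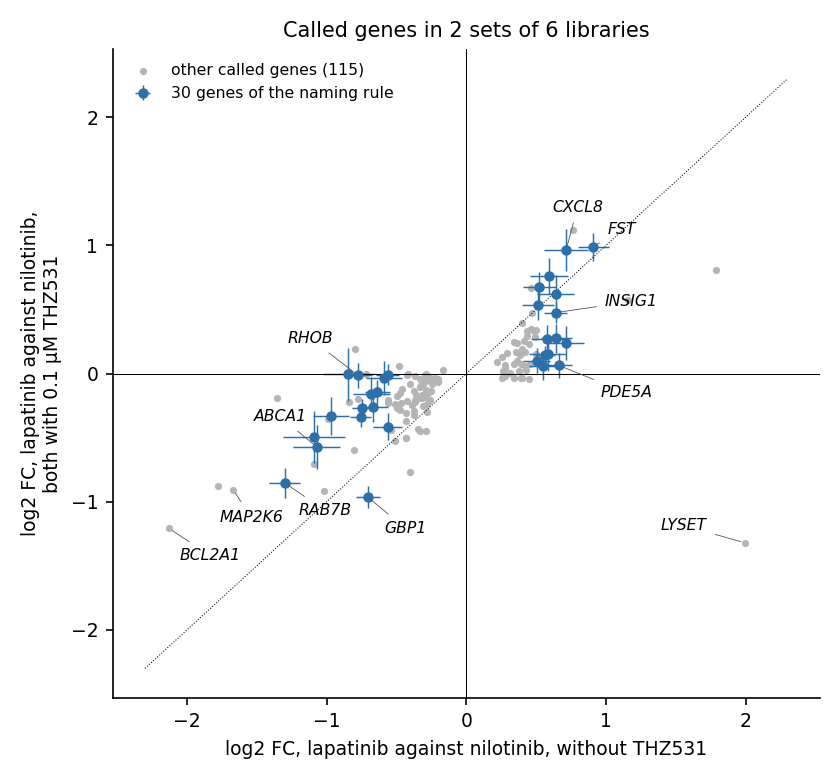
Log2 FC of lapatinib against nilotinib in the 6 libraries without THZ531 (x axis) and in the 6 with 0.1 μM THZ531 (y axis) for the 145 genes called without it, with bars of 1 SE for the 15 higher and 15 lower genes of the naming rule and a dotted line of equal values. FST, CXCL8, RAB7B and GBP1 lie far from zero in both, whereas RHOB and PDE5A lie near zero with THZ531.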

How the data were processed

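The authors aligned filtered paired-end reads of unstranded polyA-selected libraries to GRCh38 with HISAT2 (version 2.1.0 in the submitters' processing notes) and deposited raw counts per gene from featureCounts, without normalization. Whether pairs or single ends were counted is not given in the sources used here, and even values made up 61.6% to 66.4% of counts from 1 to 20, so low counts may hold fewer independent fragments than they show. Columns were mapped to samples by title, and 0 were left unused. Gene names and coordinates came from RefSeq (GRCh38.p14), which matched 27745 of 28395 identifiers and 99.98% of the counts.

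Counts were filtered with filterByExpr, scaled by TMM and fitted with edgeR 4.0.16 (glmQLFit, glmQLFTest) in R 4.3.3. All 21 libraries entered with 1 mean for each of 7 groups, which left 14 residual degrees of freedom. P-values were adjusted by Benjamini-Hochberg over 16036 genes and called under 0.05. Log2 FCs are given with SE and levels as CPM after TMM. The intervals of 95% are for the log2 FC. DESeq2 1.42.0 and limma 3.58.1 (voom) were alternatives. No library was a copy of another (chi-square per degree of freedom 7.52 to 79.9 between replicates).

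Same-numbered lapatinib and nilotinib libraries deviated from their group means with correlations of 0.598, 0.175 and 0.524. These were taken over 8794 genes whose average log2 CPM was 3 or more, a limit set after the files were seen. Differently numbered libraries gave -0.657 to 0.522 with a mean of -0.178, so the highest of them lay above the value of replicate 2 and near that of replicate 3. The pairing by number is therefore not certain from these values. The numbers were taken to pair the samples because the study describes 3 independent experiments, but the main fit does not use the pairing. Blocked values from the fit of all 21 libraries stand beside a result where they change the call.

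Named were the 15 largest log2 FCs in each direction among called genes that averaged 1 or more in log2 CPM and whose groups did not overlap, called list members and up to 4 others a list by p-value, and the drug targets. The comparison, the 24 lists and the motifs were chosen with earlier results of these data known. On counts simulated for this comparison over 16036 genes, edgeR found 4 of 50 genes changed by 0.3 on the log2 scale, 22 of 50 changed by 0.5, 38 of 50 by 1 and 43 of 50 by 1.5, with 7 false calls, and 0 without any change. The alternatives were other scalings, filters, tools and sample sets, the replicate block, and each library left out. Groups with 1.0 μM THZ531 or with THZ531 alone entered the model but were not compared, and exon-level data were not analysed here. A few named or listed genes are not reported here, though counts over lists and over all genes include them.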

Additional observations from a re-analysis of the deposited data

How the results depend on the processing

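None of the 145 called genes changed direction under any of the 17 alternatives in which it could be fitted, though 115 lost their call with at least 1 library left out. The groups did not overlap in any of these genes and the alternatives reuse the same libraries. A change of direction could therefore hardly occur. Leave-one-out values of called genes outside the naming rule, and nilotinib against DMSO without nilotinib replicate 1, were computed after the data had been seen. Of 46 called genes of the naming rule 11 stayed called in all 17 (FST, HMGCS1, INSIG1, RAB7B, ABCA1, CORO2B, RHOB, SPHK1, SPOCD1, GBP1 and MAP2K6), 33 were lost when libraries were scaled to the mitochondrially encoded mRNAs, and 27 with at least 1 library left out. The counts of higher and lower genes moved from 57 and 88 to 6 and 10 with mitochondrial scaling, to 155 and 266 with DESeq2 and to 90 and 143 with limma voom. A fit of the 6 libraries alone gave 51 and 52. The replicate block gave 78 and 132, and within the 6 libraries alone 474 and 513. With each library left out the counts lay between 13 and 70 higher and between 25 and 53 lower genes. The fewest higher and lower genes came without lapatinib replicate 3 (13 and 25), the most without nilotinib replicate 1 (70 and 53), and the other 4 gave 26 and 46 (lapatinib 1), 28 and 34 (lapatinib 2), 14 and 37 (nilotinib 2) and 18 and 35 (nilotinib 3). These fits hold fewer samples, and the causes of the other moves were not tested. The count of genes higher with lapatinib than with nilotinib, both with low THZ531, was 259 with DESeq2 in place of 117, and that of genes lower with lapatinib than with nilotinib, both with low THZ531, was 240 in place of 118. Over all 21 libraries the block turned 6 named genes into calls (SEL1L, THBS1, TGFB1, PDK4, MAP2K3 and VCL) and changed no other call among genes of the naming rule. No scaling moved the median log2 FC over all genes by more than 0.0388. Depth was similar in all libraries, and at 3 libraries a group, changes near 0.3 on the log2 scale were mostly missed in simulated counts.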

Other observations

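A few sphingolipid genes stood among the called genes on both sides and were picked out after their values had been seen, with no test of their number. Besides UGCG, which makes glucosylceramide, CERT1, the carrier of ceramide from the ER to the Golgi, was at 51.2, 51.8 and 55.2 CPM with lapatinib and at 38.4, 39.7 and 39.2 CPM with nilotinib (log2 FC 0.43 ± 0.07, adjusted p = 0.00462 by edgeR's quasi-likelihood test). CERT1 was near DMSO with nilotinib (41.6, 39.3 and 39.7 CPM in DMSO) and above it with lapatinib, and it was called with THZ531 in both groups as well (log2 FC 0.33, adjusted p = 0.024). SMPDL3A, a phosphodiesterase included here only for its relation to acid sphingomyelinase, was at 2.81, 2.77 and 3.30 CPM against 2.00, 2.19 and 2.13 CPM (log2 FC 0.49 ± 0.10, adjusted p = 0.0269). CERT1 stayed called with each library left out, and SMPDL3A was lost without any of the 6 (adjusted p up to 0.159). SPHK1, which uses up sphingosine, lay in the other direction. Also picked out afterwards, MET, the receptor of hepatocyte growth factor, was the called higher gene with the smallest difference (log2 FC 0.22), and HSF1, the heat shock factor, was among the lower ones (log2 FC -0.27). Both MET and HSF1 were lost without any of the 6 libraries (adjusted p up to 0.144 and 0.16).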
